A study of Arabidopsis thaliana with 12 samples.

Results

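The genes described here are 10 loci of flavonoid and anthocyanin synthesis in Arabidopsis thaliana, chosen by locus identifier from the 33602 genes in the count files. They are the enzymes CHS, CHI, F3H, F3'H, FLS1, DFR, LDOX and UGT78D1 and the MYB transcription factors MYB12 and MYB75 (also called PAP1). Their choice used no measured value, although it was made with earlier results of these data known. All 10 had enough counts to be tested, as did 20379 genes in all.

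Transcripts were counted by mRNA sequencing in whole seedlings of Col-0, the wild type, and of ixr1-1, an isoxaben-resistant line of the Col-0 ecotype mutated in the cellulose synthase gene CESA3. Isoxaben, a herbicide, blocks the making of cellulose, for which CESA3 supplies a catalytic subunit in primary walls. The 4 groups of 3 libraries were Col-0 in DMSO, Col-0 in isoxaben, ixr1-1 in DMSO and ixr1-1 in isoxaben, all from seedlings 6 days old in shaken liquid culture with 1% sucrose and 16 h of light per day, kept for 1 h with 600 nM isoxaben or its solvent. The contents of a flask were divided between an isoxaben flask and a DMSO flask, so both treatments of a genotype share their starting seedlings. ixr1-1 is a single line, and nothing in the labels says that libraries of a group are separate cultures, so the spread behind each p-value may be technical, and the line and its flasks cannot be told apart.

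Library totals ran from 8521491 to 20658035 counts. The mutation in ixr1-1 is a point mutation, so CESA3 counts do not check the labels. The summed level of 14 seed storage and oil body genes was 1.45 to 3.56 CPM, the counts scaled to a fixed library total, in the 6 Col-0 libraries and 113.5 to 729.3 CPM in the 6 ixr1-1 libraries. The summed level of 10 photosynthesis genes of the shoot was 32310.0 to 36930.7 CPM in Col-0 and 27575.0 to 31324.3 CPM in ixr1-1, and the sum of 13 root genes was 177.8 to 213.5 CPM over all 12 libraries. In whole seedlings, fewer cells of a type and less RNA per cell cannot be told apart.

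Flavonoids are phenolic compounds made from a phenylpropanoid precursor and malonyl-CoA. Early enzymes build a common intermediate, after which FLS1 leads to flavonols, the colourless ultraviolet screens of Arabidopsis seedlings, while DFR and LDOX lead to the red anthocyanins and, in the seed coat, to proanthocyanidins. MYB12 and its relatives switch on the early and flavonol genes, whereas MYB75 acts with bHLH and WD40 proteins on the late anthocyanin genes.

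CHS, chalcone synthase, makes the first flavonoid skeleton. Its locus AT5G13930 lies on the plus strand at chr5:4488688-4490264 with 1491 bases of exon. CHI, chalcone isomerase, closes its ring and is AT3G55120 on the minus strand at chr3:20430114-20431470. F3H, flavanone 3-hydroxylase, gives the dihydroflavonol and is AT3G51240 on the plus strand at chr3:19025192-19026872. F3'H adds a hydroxyl group to the B ring and is AT5G07990 on the plus strand at chr5:2560394-2563109. FLS1, flavonol synthase, is AT5G08640 on the plus strand at chr5:2803957-2805606. UGT78D1, a flavonol 3-O-rhamnosyltransferase, is AT1G30530 on the plus strand at chr1:10814659-10816583. DFR, dihydroflavonol reductase, competes with FLS1 for its substrate and is AT5G42800 on the minus strand at chr5:17164141-17165918. LDOX, leucoanthocyanidin dioxygenase, acts after DFR and is AT4G22880 on the minus strand at chr4:12004768-12006209. MYB12 is AT2G47460 on the plus strand at chr2:19476337-19479478, and MYB75 is AT1G56650 on the minus strand at chr1:21233595-21235137. The positions are those in the files, for which no source used here names the build, and the counts are over exons. On the opposite strand F3H overlaps AT3G51238, which had 15 to 41 counts per library, and CHS overlaps AT5G13940, which had 0 to 3, while the near-identical copy of LDOX, AT4G22870, had at most 1.

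The promoters of CHS, the entry enzyme, of F3H, an early gene that was lower in ixr1-1, and of the late pair DFR and LDOX, which were higher, are shown as the 250 bases before the RefSeq gene start on TAIR10.1. Each is written 5′ to 3′ on the gene's strand, at chr5:4488226-4488475 (plus) for CHS, chr3:19024942-19025191 (plus) for F3H, chr5:17166033-17166282 (minus) for DFR and chr4:12006210-12006459 (minus) for LDOX. Capitals mark the G-box CACGTG, a palindrome bound by bZIP and bHLH proteins, and would mark the MYB elements ACCTACC and ACCAACC if present here on either strand.
CHS: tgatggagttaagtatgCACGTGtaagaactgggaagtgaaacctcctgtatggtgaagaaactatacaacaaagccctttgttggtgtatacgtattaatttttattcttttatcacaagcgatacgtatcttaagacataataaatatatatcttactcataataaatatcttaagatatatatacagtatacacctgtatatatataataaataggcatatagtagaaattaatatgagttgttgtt
F3H: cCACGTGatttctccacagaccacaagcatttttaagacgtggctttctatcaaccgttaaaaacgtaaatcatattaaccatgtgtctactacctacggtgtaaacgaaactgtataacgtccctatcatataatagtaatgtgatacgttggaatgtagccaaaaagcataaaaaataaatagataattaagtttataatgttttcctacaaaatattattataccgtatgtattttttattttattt
DFR: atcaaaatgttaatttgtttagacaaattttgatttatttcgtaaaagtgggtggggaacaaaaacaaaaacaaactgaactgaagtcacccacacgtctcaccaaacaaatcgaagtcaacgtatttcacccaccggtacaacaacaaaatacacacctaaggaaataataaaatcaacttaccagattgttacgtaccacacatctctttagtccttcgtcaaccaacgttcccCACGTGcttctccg
LDOX: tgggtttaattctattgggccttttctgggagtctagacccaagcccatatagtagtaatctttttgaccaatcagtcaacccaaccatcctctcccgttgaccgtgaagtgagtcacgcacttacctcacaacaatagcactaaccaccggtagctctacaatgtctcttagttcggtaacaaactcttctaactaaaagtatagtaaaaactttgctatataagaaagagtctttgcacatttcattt
The RefSeq starts of CHS and DFR lie upstream of the starts in the files, and those of F3H and LDOX are the same. For CHS the RefSeq start is 4488476 and that in the files 4488688. For DFR, on the minus strand, they are 17166032 and 17165918. The RefSeq starts of CHI, F3'H, FLS1, UGT78D1, MYB12 and MYB75 lie upstream too. In windows from 250 bases before to 50 bases after the RefSeq start, searched on both strands, the G-box was in 5 of the 10 genes (CHS, CHI, F3H, DFR and MYB12) and in 7.68% of 27426 promoters. It was thus found both in genes that were lower in ixr1-1 and in DFR, which was higher, and not in LDOX. ACCTACC was in 0 of the 10 windows and in 1.37% of all promoters, and ACCAACC was in 1, DFR, where it overlaps the start on the opposite strand, against 3.29%. The shorter MYB core CNGTTG was in 6 of the 10 and 24.0% of all promoters, and TATAAA in 5 of the 10 and 52.2%. A match describes these letters and is no evidence of binding. The windows of CHS, CHI, F3'H, FLS1, DFR and MYB75 stop short of the files' starts. Bases between were not searched, so a missing motif is missing from these windows only.

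Among the early and flavonol enzymes, all but F3'H were much more abundant than the late anthocyanin enzymes. Per length, in RPKM (CPM divided by the exon length in kilobases), CHS had a mean of 172 in the 6 Col-0 libraries, with a range of 149.7 to 193.7, which put it at the 96.5 percentile of the tested genes. F3H followed at 88.3 RPKM (82.5 to 91.8), then CHI at 57.5 (54.6 to 63.8). FLS1 at 48.3 RPKM (44.9 to 50.4) and UGT78D1 at 45.7 (38.8 to 50.4) overlapped each other. CHS, F3H and CHI did not overlap their neighbours in this order among the Col-0 libraries. F3'H stood far below them at 6.49 RPKM (5.98 to 6.95), at the 34.2 percentile. LDOX at 3.99 RPKM (3.42 to 4.99), MYB12 at 3.80 (2.92 to 5.01), DFR at 3.11 (2.64 to 3.62) and MYB75 at 3.09 (2.32 to 3.54) overlapped in a last tier, MYB75 being at the 16.4 percentile.

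In ixr1-1 the order of the 5 abundant genes was the same. CHS had 155 RPKM (140.4 to 165.8), F3H 79.4 (67.9 to 91.3), CHI 48.4 (46.0 to 52.7), FLS1 40.0 (33.8 to 44.9) and UGT78D1 33.5 (29.4 to 36.1). Below them, LDOX at 6.93 RPKM (4.28 to 8.41) and DFR at 6.05 (3.34 to 7.60) moved up to the level of F3'H at 5.85 (5.41 to 6.29), with ranges that overlap it. MYB12 had 3.23 RPKM (2.21 to 3.99) and MYB75 1.76 (1.01 to 2.72).

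**Figure D1:**
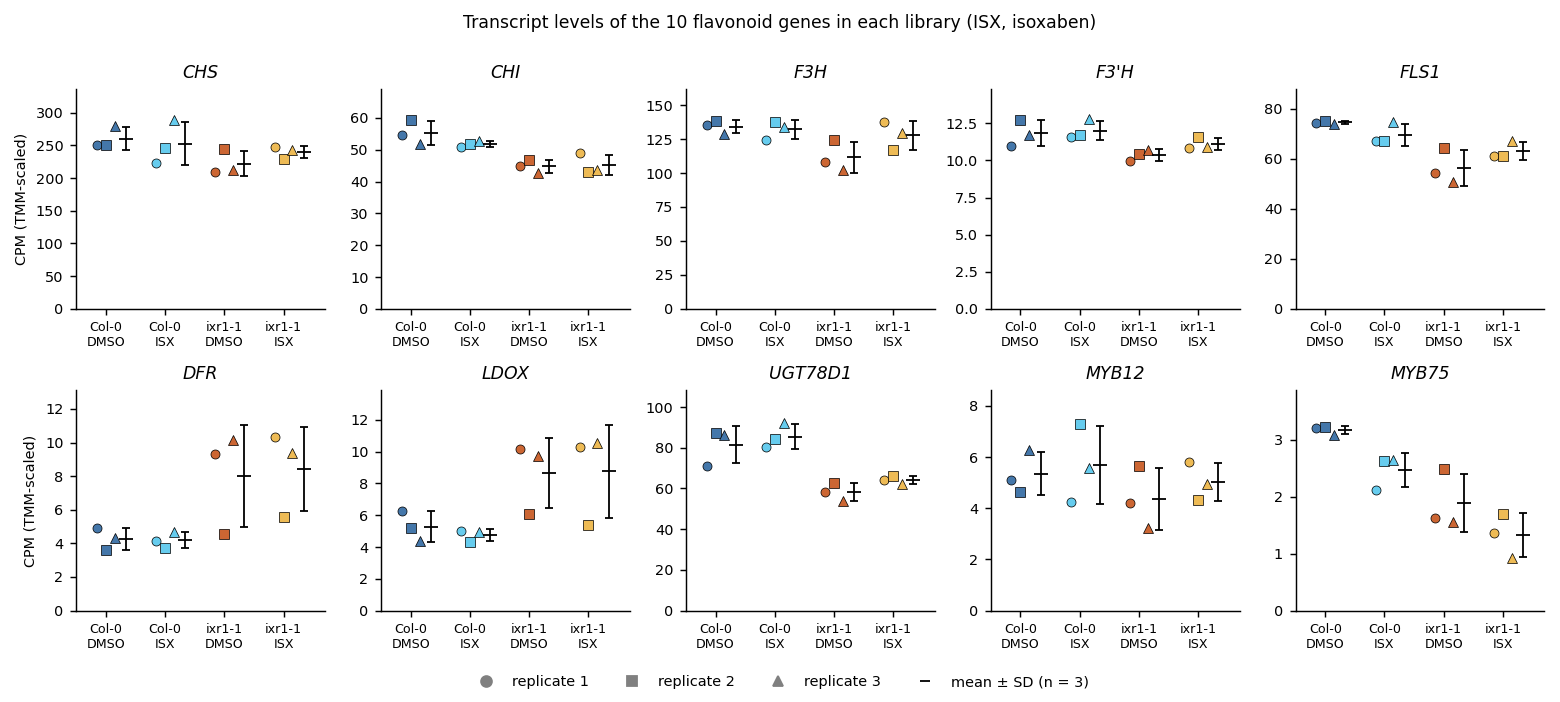
CPM scaled by TMM factors of each of the 10 genes (y axes, linear and starting at 0) in the 12 libraries, by group on the x axes, where colours are the groups, symbols the replicate numbers and bars the mean ± SD of 3 libraries. DFR and LDOX are near 10 CPM in the ixr1-1 libraries numbered 1 and 3 and near 5 CPM in those numbered 2, while UGT78D1 is lower in each ixr1-1 library than in each Col-0 library. Such a separation was found, in either direction, for 13.6% of tested genes.

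The 1 h of isoxaben changed none of the 10 genes past the threshold in either genotype. Genes were called at an adjusted p under 0.05 in edgeR's quasi-likelihood test with Benjamini-Hochberg adjustment over all tested genes. In Col-0, isoxaben against DMSO called 0 of the 10, with a background of 0.78% of all tested genes. At an unadjusted p under 0.05 the count was also 0, and DESeq2 and limma-voom called 0 as well. In ixr1-1 the call count was 0 of the 10 in edgeR, DESeq2 and limma-voom, and the background was 0% of all tested genes. An unadjusted p under 0.05 was met there by 2 genes, F3H (log2 fold change 0.19) and MYB75 (-0.60), both at an edgeR adjusted p of 0.9998.

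The intervals of these differences were narrow for the abundant enzymes and wide for the scarce genes. For CHS in Col-0 the 95% interval of the log2 fold change under isoxaben was -0.22 to 0.14, for FLS1 it was -0.26 to 0.06 and for UGT78D1 -0.10 to 0.24. For DFR, with 43 to 142 counts per library, it was -0.76 to 0.69. In ixr1-1 the interval of CHS was -0.08 to 0.29 and that of DFR -0.49 to 0.79.

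MYB75 had the largest difference with isoxaben of the 10 in both genotypes, and it did not pass the test in either. In Col-0 it had 3.20, 3.23 and 3.09 CPM in DMSO and 2.12, 2.64 and 2.65 CPM in isoxaben. The libraries of the 2 treatments did not overlap, as was so for 12.8% of all tested genes, and the log2 fold change was -0.34 ± 0.22 (SE, n = 3 against 3; edgeR adjusted p = 0.927). In ixr1-1 it had 1.63, 2.48 and 1.56 CPM in DMSO and 1.36, 1.70 and 0.925 CPM in isoxaben, where the treatments overlapped. Its counts were 14 to 59 per library.

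The response to isoxaben did not differ detectably between the genotypes. The interaction called 0 of the 10, with a background of 0.314% of tested genes, and DESeq2 and limma-voom called 0 too. FLS1 was the 1 gene with an unadjusted p under 0.05, with a difference between the responses of 0.25 ± 0.11 on the log2 scale (SE, edgeR adjusted p = 0.967).

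**Figure D2:**
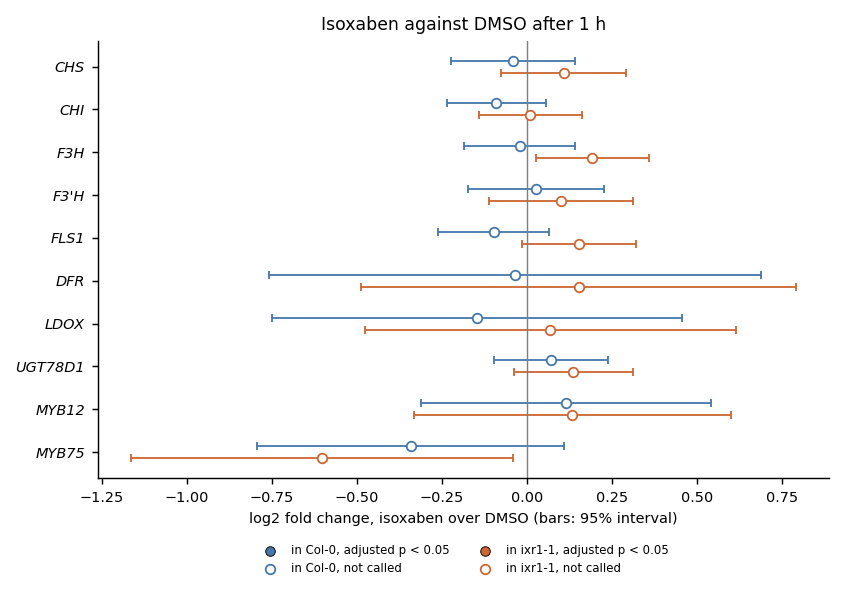
Log2 fold change of isoxaben over DMSO after 1 h (x axis) for each of the 10 genes (y axis) in Col-0 and in ixr1-1, with bars for the 95% interval and filled points for adjusted p under 0.05. No point is filled, and the bars of DFR, LDOX, MYB12 and MYB75 are the widest.

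Genotype separated the genes. Averaged over both treatments, CHI, F3H, FLS1 and UGT78D1 of the early and flavonol steps were lower in ixr1-1 than in Col-0, as was MYB75, and the late anthocyanin enzymes DFR and LDOX were higher. CHS, F3'H and MYB12 were not called in any comparison. In DMSO, 4 of the 10 genes were called lower (CHI, F3H, FLS1 and UGT78D1) and 0 higher, against a background of 17.2% of tested genes called, 9.79% higher and 7.42% lower. In isoxaben, 2 were called lower (UGT78D1 and MYB75) and 1 higher (LDOX), against a background of 12.8%, of which 6.92% were higher and 5.85% lower. Over both treatments, 5 were called lower (CHI, F3H, FLS1, UGT78D1 and MYB75) and 2 higher (DFR and LDOX), against a background of 29.3%, 15.4% higher and 13.9% lower. That average uses the same libraries and is no independent result. Treatments of a genotype share starting seedlings but were counted as separate libraries in it, so its p-values may overstate the replication. In the main edgeR model, with TMM factors and no replicate block, DFR was called only in this average. Some alternatives also called it within a treatment. The median log2 fold change of the 10 genes in it was -0.20, and that of all tested genes 0.005.

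Among the early enzymes, CHI fell in ixr1-1. It had 54.6, 59.3 and 51.8 CPM in Col-0 DMSO and 44.8, 46.7 and 42.7 CPM in ixr1-1 DMSO. In isoxaben it had 50.8, 51.9 and 52.6 CPM in Col-0 and 49.0, 43.1 and 43.7 CPM in ixr1-1. Each Col-0 library was above each ixr1-1 library, which over 6 against 6 libraries was so, in either direction, for 13.6% of tested genes. The log2 fold change over both treatments was -0.25 ± 0.05 (SE, edgeR adjusted p = 0.000933), which is 1.19-fold lower.

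CHS itself, at the head of the pathway, was not called. Its levels were 250.2, 250.3 and 280.1 CPM in Col-0 DMSO and 209.3, 244.3 and 212.8 CPM in ixr1-1 DMSO. These did not overlap, as was so for 33.7% of tested genes, and the log2 fold change was -0.23 ± 0.09 (SE, n = 3 against 3; edgeR adjusted p = 0.0834). In isoxaben the genotypes overlapped, with 223.2, 246.7 and 288.8 CPM in Col-0 and 247.1, 229.5 and 242.6 CPM in ixr1-1.

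F3H fell in DMSO, where it had 135.3, 138.5 and 129.0 CPM in Col-0 and 108.4, 124.2 and 102.3 CPM in ixr1-1 (log2 fold change -0.26 ± 0.08, SE, edgeR adjusted p = 0.0271). In isoxaben it overlapped, with 124.4, 137.7 and 134.2 CPM in Col-0 and 137.7, 116.6 and 129.6 CPM in ixr1-1, and the log2 fold change was -0.05 (adjusted p = 0.754). Its call was the least stable among the lower genes: it was lost under 7 of 23 alternatives in DMSO and 11 of 22 over both treatments. With library size alone in place of TMM the adjusted p over both treatments was 0.219.

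F3'H, the B-ring hydroxylase, was near 11 CPM throughout and was not called in any comparison. It ran from 10.98 to 12.7 CPM in Col-0 DMSO, 11.6 to 12.8 in Col-0 isoxaben, 9.93 to 10.7 in ixr1-1 DMSO and 10.9 to 11.5 in ixr1-1 isoxaben. The ixr1-1 libraries lay below the Col-0 libraries in each treatment, where groups did not overlap for 33.7% (DMSO) and 30.6% (isoxaben) of tested genes, with log2 fold changes of -0.19 (edgeR adjusted p = 0.213) in DMSO and -0.11 (adjusted p = 0.504) in isoxaben.

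In the flavonol branch, UGT78D1 had the smallest adjusted p of the 10 genes in DMSO, in isoxaben and in the average of both. It had 71.0, 87.2 and 86.2 CPM in Col-0 DMSO and 58.0, 62.7 and 53.8 CPM in ixr1-1 DMSO. In isoxaben it had 80.2, 84.1 and 92.2 CPM in Col-0 and 64.2, 66.1 and 62.3 CPM in ixr1-1. The 6 ixr1-1 libraries all lay below the 6 Col-0 libraries, a separation found, in either direction, for 13.6% of tested genes. The log2 fold change was -0.48 ± 0.08 (SE, edgeR adjusted p = 0.000432) in DMSO and -0.42 ± 0.08 (adjusted p = 0.00252) in isoxaben.

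FLS1 fell in DMSO, from 74.4, 75.3 and 74.1 CPM in Col-0 to 54.4, 64.3 and 50.5 CPM in ixr1-1. The groups did not overlap there, as was so for 33.7% of tested genes (log2 fold change -0.39 ± 0.08, SE, edgeR adjusted p = 0.00182, 1.31-fold lower). In isoxaben the values were 67.1, 67.1 and 74.7 CPM in Col-0 and 60.9, 61.3 and 67.2 CPM in ixr1-1. These overlapped at their edges, and the difference of -0.14 was not called (adjusted p = 0.271).

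Of the 10 shoot photosynthesis genes, 6 were called lower in ixr1-1 over both treatments and 0 higher, against 13.9% of tested genes called lower. Their median log2 fold change was -0.17, with a range of -0.31 to -0.004. On the same scale CHI (-0.25), F3H (-0.15) and FLS1 (-0.27) lay within that range, and UGT78D1 (-0.45) lay below it. Their summed level in each ixr1-1 library was below that in each Col-0 library. Their part in the lower levels of CHI, F3H, FLS1 and UGT78D1 was not tested. None of the 13 root genes was called over both treatments in edgeR, against 29.3% of tested genes, and none had an unadjusted p under 0.05. In isoxaben alone 1 of them was called higher in ixr1-1 (edgeR adjusted p = 0.0135), against 6.92% of tested genes. With isoxaben in Col-0 1 was called lower (adjusted p = 0.00508), where 0.78% of tested genes were called in either direction.

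**Figure D3:**
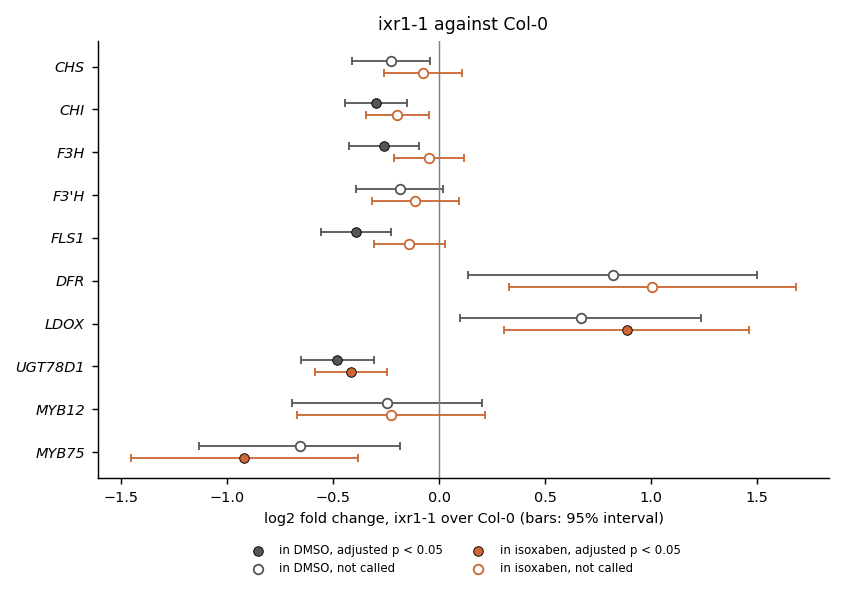
Log2 fold change of ixr1-1 over Col-0 (x axis) for each of the 10 genes (y axis) in DMSO and in isoxaben, with bars for the 95% interval and filled points for adjusted p under 0.05. DFR and LDOX lie right of 0 in both treatments and the other 8 genes left of 0.

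In the late branch, DFR and LDOX rose in ixr1-1 over both treatments, by 1.88-fold and 1.71-fold. DFR had 4.91, 3.59 and 4.30 CPM in Col-0 DMSO and 9.34, 4.54 and 10.1 CPM in ixr1-1 DMSO. In isoxaben it had 4.15, 3.73 and 4.67 CPM in Col-0 and 10.3, 5.60 and 9.39 CPM in ixr1-1. In both treatments the ixr1-1 library numbered 2 was close to the Col-0 libraries and the other ones were well above them. The genotypes overlapped in DMSO and not in isoxaben, where groups did not overlap for 30.6% of tested genes. The log2 fold change was 0.82 ± 0.31 (SE, edgeR adjusted p = 0.0969) in DMSO, 1.01 ± 0.31 (adjusted p = 0.0545) in isoxaben and 0.91 ± 0.22 (adjusted p = 0.00834) over both.

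LDOX, the next enzyme, had the same pattern over libraries. It had 6.27, 5.20 and 4.35 CPM in Col-0 DMSO and 10.2, 6.11 and 9.74 CPM in ixr1-1 DMSO. In isoxaben it had 5.02, 4.30 and 4.95 CPM in Col-0 and 10.3, 5.38 and 10.6 CPM in ixr1-1. Here too the library numbered 2 was the low one in both ixr1-1 groups. The genotypes overlapped in DMSO and not in isoxaben, where groups did not overlap for 30.6% of tested genes. The log2 fold change was 0.67 ± 0.26 (SE, edgeR adjusted p = 0.103) in DMSO, 0.88 ± 0.27 (adjusted p = 0.0465) in isoxaben and 0.78 ± 0.19 (adjusted p = 0.00718) over both. The call in isoxaben alone ended under 12 of 23 alternatives. DESeq2 called DFR (adjusted p = 0.0135) and LDOX (adjusted p = 0.0371) in DMSO as well, where the main edgeR model did not. So did edgeR with a replicate block by number (adjusted p = 0.000943 for DFR and 0.00694 for LDOX). In isoxaben DFR was called under 8 of 23 alternatives, DESeq2 among them (adjusted p = 0.00494).

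The ixr1-1 DMSO library numbered 2 moved the calls in DMSO. Without it, DFR was called in DMSO (log2 fold change 1.19, edgeR adjusted p = 0.00188), and so were LDOX (0.92, adjusted p = 0.0244), MYB75 (-0.99, adjusted p = 0.0251) and CHS (-0.30, adjusted p = 0.0437). Without both ixr1-1 libraries numbered 2, an alternative chosen after the values were seen, DFR over both treatments stood at 1.21 and LDOX at 1.04. The libraries numbered 2 were the lowest of their group in both ixr1-1 groups for 2 of the 10 genes (20%), DFR and LDOX, and for 17.4% of all tested genes. They were the highest in both for 2 of the 10, UGT78D1 and MYB75, and for 14.8% of all tested genes.

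DFR and LDOX moved together across libraries, and against MYB75. With the group means taken off, the log2 levels of DFR and LDOX over the 12 libraries had a Pearson r of 0.89, those of DFR and MYB75 one of -0.75 and those of LDOX and MYB75 one of -0.78. The early genes CHI and F3H had 0.77, and CHS and FLS1 0.67. These are descriptions, since the values share libraries and their depth.

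At the branch point where FLS1 and DFR compete for dihydroflavonols, DFR transcripts stood higher relative to FLS1 transcripts in the ixr1-1 libraries. This ratio combines the DFR and FLS1 levels given above and is no separate result. Per length, DFR was 7.26, 5.24 and 6.38% of FLS1 in Col-0 DMSO and 18.9, 7.76 and 22.0% in ixr1-1 DMSO. In isoxaben it was 6.81, 6.11 and 6.88% in Col-0 and 18.6, 10.0 and 15.4% in ixr1-1. Each ixr1-1 library, those numbered 2 included, was above each Col-0 library of its treatment. The exact permutation test (two-sided) gave p = 0.1 in each treatment, the smallest that 3 against 3 libraries allow, and this ratio was chosen after the values had been seen.

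**Figure D4:**
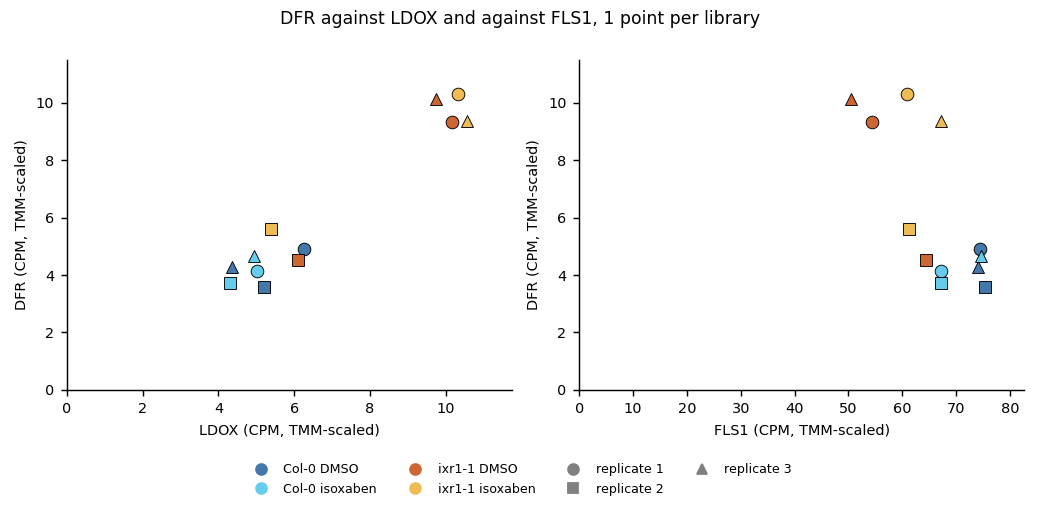
DFR (y axes) against LDOX (left) and against FLS1 (right), in CPM scaled by TMM factors on linear axes from 0, with 1 point per library, colours for the groups and symbols for the replicate numbers. In the left panel 4 ixr1-1 libraries stand near 10 CPM of both genes, and the 2 ixr1-1 libraries numbered 2 stand with the Col-0 libraries.

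Among the transcription factors, MYB75 was lower in ixr1-1 while DFR and LDOX were higher. It had 3.20, 3.23 and 3.09 CPM in Col-0 DMSO against 1.63, 2.48 and 1.56 CPM in ixr1-1 DMSO, and in isoxaben 2.12, 2.64 and 2.65 CPM against 1.36, 1.70 and 0.925 CPM. The genotypes did not overlap in either treatment, where that was so for 33.7% (DMSO) and 30.6% (isoxaben) of tested genes. The log2 fold change was -0.66 ± 0.23 (SE, edgeR adjusted p = 0.0516) in DMSO and -0.92 ± 0.26 (adjusted p = 0.0231) in isoxaben, and over both treatments -0.79 ± 0.17 (adjusted p = 0.00171). The call in isoxaben was lost under 5 of 23 alternatives, and the counts of this gene were low. These were leaving out the Col-0 isoxaben library numbered 2 (edgeR adjusted p = 0.0829) or 3 (0.0757) or the ixr1-1 isoxaben library numbered 3 (0.121). The others were leaving out both ixr1-1 libraries numbered 1 (0.0503) and adding the summed storage level to the model.

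MYB12, the activator of flavonol genes, was not called. It had 5.11, 4.64 and 6.29 CPM in Col-0 DMSO and 4.20, 5.63 and 3.21 CPM in ixr1-1 DMSO. In isoxaben it had 4.25, 7.28 and 5.58 CPM in Col-0 and 5.80, 4.32 and 4.96 CPM in ixr1-1. The genotypes overlapped in both treatments, with a log2 fold change over both of -0.24 ± 0.15 (SE, edgeR adjusted p = 0.259).

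DFR and LDOX are also used in seeds, and ixr1-1 libraries held seed storage transcripts. All 14 storage and oil body genes were called higher in ixr1-1 over both treatments. Their summed level was 223.8, 729.3 and 617.1 CPM in the ixr1-1 DMSO libraries and 113.5, 439.1 and 660.4 CPM in the ixr1-1 isoxaben libraries, in the order of their numbers. In both treatments DFR and LDOX were high in the library numbered 1, which had the lowest storage sum of its group, and in the library numbered 3, which had the highest in isoxaben and the middle one in DMSO. They were low in the library numbered 2, which had the highest storage sum in DMSO and the middle one in isoxaben. The part of storage transcripts in the levels of DFR and LDOX was not tested with these 6 libraries. Of 7 genes of proanthocyanidin synthesis in the seed coat, 6 had too few counts to be tested, BAN having 2 counts in all 12 libraries together and TT2 9, and the tested AHA10 was not called (log2 fold change 0.24, edgeR adjusted p = 0.247). Adding the summed storage level to the model left 0 of the 10 genes and 0 of all tested genes called between the genotypes. The fitted log2 fold changes over both treatments were then larger for DFR (2.17) and LDOX (1.999), with an edgeR adjusted p of 0.99996 for both, and the storage levels of the genotypes do not overlap. Storage transcripts and genotype cannot be told apart in this design.

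Other genes of the pathway, in lists drawn up with earlier results known, were read in the same model over both treatments. The general phenylpropanoid steps, which make the precursor, had 1 of 9 called higher and 2 lower, with a median of 0.03, a share near the 29.3% of all tested genes called in either direction. PAL3, a phenylalanine ammonia-lyase, rose by 0.17 on the log2 scale (edgeR adjusted p = 0.0148). PAL2 fell by 0.18 (adjusted p = 0.0434), and 4CL3, the 4-coumarate:CoA ligase tied to flavonoids, fell by 0.25 (adjusted p = 0.00382). Of 3 other core enzymes tested, 1 was called: CHIL, the chalcone isomerase-like protein that aids CHS, fell by 0.34 (adjusted p = 4.80e-05).

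Enzymes that decorate flavonoids and anthocyanins had 6 of 13 called higher and 3 lower, against 15.4% and 13.9% of all tested genes. AT5MAT, an anthocyanin malonyltransferase, had 0.633 to 0.943 CPM in Col-0 DMSO and 1.43 to 1.99 CPM in ixr1-1 DMSO, and rose by 1.04 over both treatments (log2 fold change, edgeR adjusted p = 0.00142). GSTF12, the glutathione transferase TT19 needed for anthocyanins to reach the vacuole, rose by 0.65 (adjusted p = 0.00322). In DMSO both were above Col-0 in each ixr1-1 library, non-overlap being found for 33.7% of tested genes. In isoxaben GSTF12 overlapped, with 3.83 CPM in the ixr1-1 library numbered 2 and 3.97 CPM in the Col-0 library numbered 3. UF3GT, an anthocyanin glycosyltransferase named here after its values were seen, was higher by 1.10 (adjusted p = 0.00339).

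In this list 5 of 13 genes (38.5%) were, like DFR and LDOX, lowest in both ixr1-1 libraries numbered 2, namely AT4G14090, UF3GT, AT5MAT, AT1G03495 and GSTF12, against 17.4% of all tested genes, and the other 8 were not. Some levels were low: AT1G03495 had 0.906, 0.850 and 1.59 CPM in the ixr1-1 isoxaben libraries, in the order of their numbers. AT1G03495 has a near-identical copy, AT1G03940, and AT4G14090 shares exon positions with AT4G14100 on the opposite strand. The list also held the flavonol glycosyltransferase UGT73C6, which rose by 1.17 (edgeR adjusted p = 2.37e-06) from 10.6 to 11.5 CPM in Col-0 DMSO to 20.2 to 29.9 CPM in ixr1-1 DMSO, and which shares exon positions with AT2G36792 on the opposite strand. AT1G06000, annotated as a UDP-glycosyltransferase and overlapped by AT1G06002, fell by 0.31 (adjusted p = 0.00136).

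Among the regulators, each list had a smaller share called than the 29.3% of all tested genes called in either direction. The 7 other activators tested were MYB, bHLH and WD40 proteins and the WRKY factor TTG2. Of these, EGL3, a bHLH partner of MYB75, was called lower (-0.37, edgeR adjusted p = 0.0319) and none higher. TT8, another bHLH partner, stood at 0.09 (adjusted p = 0.755), MYB90, the closest relative of MYB75, at -0.08 (adjusted p = 0.872) and MYB111, a relative of MYB12, at -0.23 (adjusted p = 0.102). MYB11, MYB113 and MYB114 had too few counts to be tested. Of 10 repressors, 1 was called: LBD39, a nitrate-responsive repressor of anthocyanin synthesis, rose by 0.33 (adjusted p = 0.000269). Of 9 genes of light and UV-B signalling, 1 was called higher and 1 lower. PIF3, a phytochrome-interacting bHLH factor, rose by 0.43 (adjusted p = 0.00123) and UVR8, the UV-B receptor, fell by 0.16 (adjusted p = 0.00875). HY5, the light-regulated bZIP factor, stood at -0.09 (adjusted p = 0.485). In the 2 comparisons of isoxaben with DMSO, 0 genes of these lists were called.

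**Figure D5:**
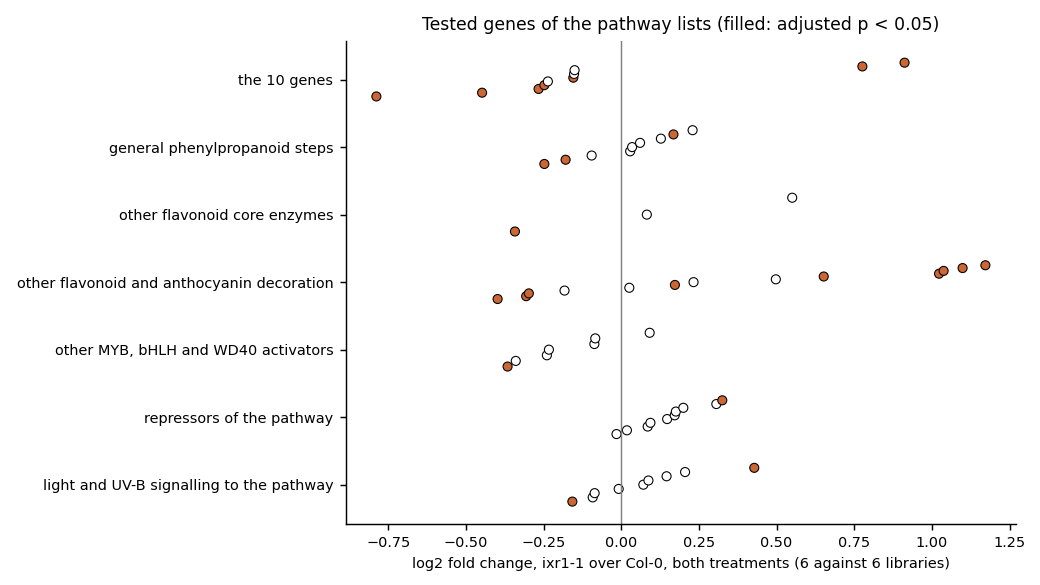
Log2 fold change of ixr1-1 over Col-0 over both treatments (x axis) for the tested genes of each pathway list (y axis), with 1 point per gene, filled where the adjusted p was under 0.05. The decoration genes spread from -0.40 to 1.17, while the activators reach at most 0.09.

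The genes most like CHS across libraries were not flavonoid genes of these lists. By Pearson r of log2 CPM over the 12 libraries, among 18282 genes other than the 10, these were MSI1 (0.92), AT2G36792 (0.88), TPX2 (0.87), MCD1 (0.86) and FOLB1 (0.85). AT2G36792 shares exon positions with UGT73C6, a gene of these lists, on the opposite strand. The highest of so many correlations over 12 libraries are only descriptions. With group means taken off they were AT4G37180 (0.94), AT5G39980 (0.94), TUB3 (0.93), AT3G27230 (0.92) and RecQl3 (0.90). Among the 10 genes the highest r with CHS over the 12 libraries was that of FLS1, at 0.81.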

How the data were processed

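Seedling mRNA libraries were made with a stranded kit, per the labels. FastQC 11.1, bcl2fastq, featureCounts 1.4.6 and STAR 2.4.1 are named in the submitters' processing notes. No source used here gives the build, annotation or strand setting, so reads of a gene and of one overlapping it on the other strand may be mixed. The authors deposited raw counts per gene, 1 file per library, without normalization, per the file headers. There were 0 features without a gene name. On TAIR10.1, 97.9% of 120747 gaps between the files' exons had GT and AG ends. Symbols came from RefSeq for 32835 genes.

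From the counts, 20379 genes passed filterByExpr, were scaled by TMM and were fitted with edgeR 4.0.16 (glmQLFit, robust; glmQLFTest) in R 4.3.3, in 1 model over 12 libraries with a term per group. P-values were adjusted by Benjamini-Hochberg over all tested genes within each of the comparisons, with a threshold of 0.05. RPKM used the files' exon lengths. Promoters were cut from RefSeq's TAIR10.1. The fit was tested on simulated data. Simulated libraries were drawn independently, so this could not check the effect of shared starting seedlings or flasks. Replicate pairs differed by more than sampling noise (chi-square per degree of freedom 2.82 to 6.98).

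The 10 genes and the pathway and marker lists were chosen with earlier results of these data known. All 10 were named. Of each pathway list, up to 4 genes called over both treatments were named by adjusted p, with the exceptions marked in the text. The genes listed beside CHS were the 5 outside the 10 with the highest r and an average log2 CPM of at least 1. Overlaps needed a shared exon position, and near-identical copies 95% identity over at least 100 bases.

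Alternatives were DESeq2 size factors, library size alone, other filters, DESeq2 1.42.0, limma-voom (limma 3.58.1), the compared groups only, replicate blocks, each library left out, both ixr1-1 libraries numbered 1 left out and the seed storage level as a covariate. Leaving out both ixr1-1 libraries numbered 2 was chosen after the data were seen. Same-numbered Col-0 libraries had correlations of their deviations from the group means of 0.03 to 0.21, and ixr1-1 libraries 0.03 to 0.31. Numbers were not treated as pairs in the main model because the labels tie no number to a shared flask. The background counts depended on this choice. With a replicate block by flask, 367 of all tested genes were called for isoxaben in Col-0, against 159 in the main model. In ixr1-1 there were 13 against 0, and for the interaction 180 against 64.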

Additional observations from a re-analysis of the deposited data

How the results depend on the processing

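None of the 10 genes was called for isoxaben in Col-0, isoxaben in ixr1-1 or the interaction under any alternative that was run, each library left out included. Over all tested genes these alternatives called 77 to 367, 0 to 13 and 22 to 180. Leaving out single libraries gave 3 to 8 called genes of the 10 between the genotypes in DMSO (4 with all libraries), 1 to 4 in isoxaben (3 with all) and 6 to 8 over both treatments (7 with all). Over all tested genes the same runs called 2281 to 3798 in DMSO, 1549 to 2756 in isoxaben and 4968 to 5983 over both treatments. With all libraries these were 3509, 2602 and 5977 of 20379. In DMSO there were 8 without the ixr1-1 DMSO library numbered 2 and 7 without the ixr1-1 isoxaben library numbered 2. All tested genes called were then 2281 of 20546 and 3798 of 20559. In isoxaben there was 1 without the Col-0 isoxaben library numbered 2 or 3 or the ixr1-1 isoxaben library numbered 3. The calls over all tested genes were then also fewer, at 1664 of 20554, 1570 of 20564 and 1712 of 20540. A replicate block by number gave 8 in DMSO and 5 in isoxaben, where it called 4320 and 3572 of all 20379 tested genes. A block by flask gave 0 for the treatment comparisons and the interaction. In Col-0 6 of 6 and in ixr1-1 4 of 6 libraries correlated best with their own number, a hint from the data and not the design. Without both ixr1-1 libraries numbered 2 there were 8 in DMSO, with 2569 of 20497 tested genes called. With the seed storage level as a covariate there were 0 in DMSO, 0 in isoxaben and 0 over both treatments, as for all tested genes. CHI then turned to 0.0389 in DMSO and 0.0836 over both treatments (log2 fold change). Over both treatments that covariate gave 2.17 for DFR, 1.999 for LDOX, -0.70 for FLS1, -0.78 for UGT78D1 and -1.03 for MYB75, none called, against 0.91, 0.78, -0.27, -0.45 and -0.79 without it; the cause was not tested. DFR, LDOX, CHI, FLS1, UGT78D1 and MYB75 kept their calls over both treatments under all but that covariate. Depth limits DFR, LDOX, MYB12 and MYB75, of which MYB75 had 14 to 59 counts per library.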
